A study of Mus musculus with 8 samples.

Results

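The 9 genes described here encode cytokines that stromal cells make to keep lymphocytes and myeloid cells alive, and 1 receptor chain that presents such a cytokine. They are Il15, Il15ra, Il7, Csf1, Csf2, Csf3, Kitl, Tnfsf13b and Tslp, chosen by symbol for this role, but with earlier results of these data known. All 9 stood among the 24015 gene symbols of each count table. The 4 libraries came from wild type murine embryonic fibroblasts (MEFs) on a C57bl/6 background, derived from E12.5 embryos and used at passages 15 to 18. In 2 libraries the cells were untreated, and in 2 they had received 100 units/mL of murine recombinant interferon-beta (IFN-beta) for 6 h. Every group was wild type, so none carried the HA-tagged histone H3.3 that the series also presents. Nothing in the labels says that the replicates were separate cultures, and p-values here may then reflect technical spread alone. The cultures are labelled as fibroblasts alone, so the lymphocytes and myeloid cells on which these cytokines act are not part of the design.

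Interleukin-15 supports natural killer cells and memory CD8+ T cells. It is made together with its receptor alpha chain, Il15ra, which carries it to the surface of the producing cell and hands it to neighbours that bear the beta and common gamma chains. Interleukin-7 is the stromal survival factor of T and B cell precursors, Csf1 (M-CSF) maintains macrophages, and Kitl (stem cell factor) supports stem cells, mast cells and melanocytes through the receptor Kit. Csf2 (GM-CSF) and Csf3 (G-CSF) drive granulocyte and macrophage production and are typically induced by inflammatory signals. Tnfsf13b (BAFF) is the survival factor of mature B cells, and Tslp acts on dendritic cells and type 2 lymphocytes. IFN-beta signals through a transcription factor complex that contains STAT2 and IRF9 and binds DNA elements called ISREs, and IRF1 binds similar letters. NF-kB, a factor of the inflammatory response, binds another type of element.

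Start regions were looked up for the 9 genes in RefSeq (build GRCm38.p6, whereas the counts were made on mm9), as windows of 250 bases before and 50 after an annotated start. Csf1, Kitl and Csf2 had 1 window each, Il15ra and Tnfsf13b had 2 each, and Il15, Il7, Csf3 and Tslp had no entry in the table. The stretches below show the letters found near starts of the receptor gene Il15ra and of Csf1, which both rose, beside similar letters of Kitl, which was not called, and of Tnfsf13b, whose counts were too low for a test. Capitals mark matches, on either strand, to AANNGAAA (the core of an ISRE in a loose form) in Il15ra and Tnfsf13b, and to an NF-kB-type element (GGG, 4 bases of any kind, TCC) in Csf1 and Kitl.
Il15ra, first window, chr2:11705043-11705292, plus strand: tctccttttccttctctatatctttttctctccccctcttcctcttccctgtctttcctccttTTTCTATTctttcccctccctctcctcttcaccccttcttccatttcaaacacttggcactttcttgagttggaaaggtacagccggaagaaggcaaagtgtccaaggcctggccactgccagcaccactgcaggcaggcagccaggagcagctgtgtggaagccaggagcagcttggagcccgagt
Il15ra, 30 bases of the second window, chr2:11705727-11705756, plus strand: ggctaaagcaaAAGCGAAAgcgaatactcc
Tnfsf13b, 30 bases of the second window, chr8:10006605-10006634, plus strand: cttacaaaAACTGAAAGTGAAAtgcggaag
Csf1, chr3:107760470-107760719, minus strand: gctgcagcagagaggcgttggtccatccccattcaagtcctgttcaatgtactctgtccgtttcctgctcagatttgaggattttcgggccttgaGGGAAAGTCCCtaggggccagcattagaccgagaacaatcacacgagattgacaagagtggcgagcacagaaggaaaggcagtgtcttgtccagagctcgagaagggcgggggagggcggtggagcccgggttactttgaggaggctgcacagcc
Kitl, chr10:100015571-100015820, plus strand: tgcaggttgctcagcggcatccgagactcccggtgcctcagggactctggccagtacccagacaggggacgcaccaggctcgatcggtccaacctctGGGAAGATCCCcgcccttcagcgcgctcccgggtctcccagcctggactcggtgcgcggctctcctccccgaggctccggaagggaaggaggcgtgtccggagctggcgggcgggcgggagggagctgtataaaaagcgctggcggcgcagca

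The stricter ISRE core (GAAA, 2 bases of any kind, GAAA) was present in 3.44% of all 32851 windows. Of the 11610 windows of tested genes 3.02% held it, and of the 544 of genes called higher 14.9%. Among the windows of the 9 genes it was found only in the second Tnfsf13b window, beginning 16 bases before the start, where it overlaps both capitalised matches. The loose core AANNGAAA was more common, at 23.9% of all windows, 17.9% of those of tested genes and 33.6% of those of genes called higher. In Il15ra it began 187 bases before the first start and 27 bases after the second one. The NF-kB-type letters occurred in 19.2% of all windows, 23.9% of those of tested genes and 27.9% of those of genes called higher. The second Il15ra window held them too, beginning 102 bases before its start. Csf1 and Kitl each held them at a comparable distance, beginning 155 and 153 bases before the start, and in both the match reads on the 2 strands with an overlap. A GAS element (TTCNNNGAA, bound by STAT dimers) was present in 8.3% of all windows and in none of the 7 windows of these genes. Its share was 6.92% among windows of tested genes and 9.74% among those of genes called higher. A match is a run of letters, not a shown binding site.

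The libraries held 18528685 and 24817342 gene counts untreated and 18901845 and 20714161 after IFN-beta. Levels are given as CPM, counts scaled to a library of 1000000 after a correction for library composition, and changes as log2 fold changes of IFN-beta over untreated. The cells responded to the cytokine: Ifit1, an RNA-binding antiviral gene, went from 24 and 30 counts to 30774 and 39268, and Mx1, an antiviral GTPase gene, had 0 untreated counts and 3088 and 4972 after treatment. Over all 12128 tested genes, 4.73% were called higher and 0.495% lower (quasi-likelihood test in edgeR, p adjusted by Benjamini-Hochberg, threshold 0.05). That split was 574 higher to 60 lower, but 478 to 350 when libraries were scaled by total counts, a setting that moves the median of all genes from -0.02 to -0.16. The ribosomal RNA precursor gene Rn45s took 4.2% and 5.65% of gene counts untreated and 10.2% and 9.06% after IFN-beta, and its part in these calls was not tested. Replicates of a group differed by more than counting error over all genes (chi-square per gene 26.2 untreated and 9.41 treated), and the untreated pair stood further apart than the treated pair for Il15, Il15ra, Csf1 and Kitl. Fibroblast markers such as Col1a2 and Vim (vimentin) were abundant in every library. Of the 8 fibroblast markers 0 were called by edgeR, DESeq2 or limma-voom. An unadjusted p under 0.05 was met by 2202 of all 12128 tested genes. Among these 8 markers 3 met it, with Vim and Fn1 higher and Pdgfra lower (log2 fold change -0.62).

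IFN-beta raised Il15, Il15ra, Il7 and Csf1 in these fibroblasts, whereas Kitl and Tslp were not called and Csf2, Csf3 and Tnfsf13b stayed at a few counts. Of the 9 genes, 6 had enough counts for the test, and 4 of the 6 were called higher and 0 lower, against the background of 4.73% and 0.495%. At an unadjusted p under 0.05, met in either direction by 2202 of 12128 tested genes, there were also 0 lower, as by DESeq2 and limma-voom. Their median log2 fold change was 1.10, beside -0.02 over all tested genes. In each of the 4 called genes both treated libraries lay above both untreated ones, a pattern that 23.9% of all tested genes also showed. The plot of levels by library shows this separation and the overlap in the remaining genes.

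**Figure D1:**
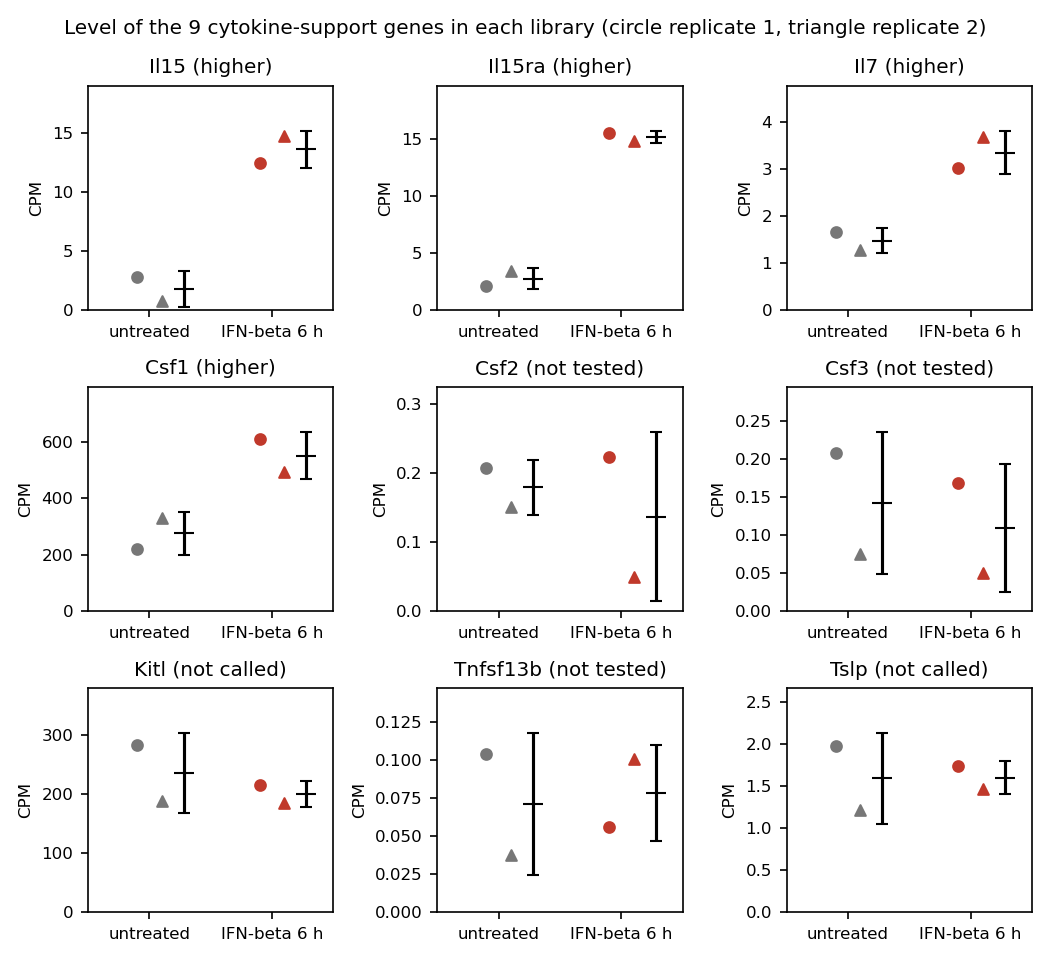
Level in CPM (vertical axes, linear from 0, separate for each gene) of the 9 genes in untreated (grey) and IFN-beta treated (red) libraries, with circles for replicate 1, triangles for replicate 2 and black bars for the mean ± SD of 2 libraries. The treated libraries lie above the untreated ones for Il15, Il15ra, Il7 and Csf1, and the groups overlap in the other panels, of which Csf2, Csf3 and Tnfsf13b rest on 1 to 4 counts per library.

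Il15, the interleukin-15 gene, had 55 and 20 counts in the untreated libraries and 223 and 292 in the treated ones. In CPM these were 2.86 and 0.758 untreated, then 12.49 and 14.71 after IFN-beta, or 1.81 ± 1.48 against 13.6 ± 1.57 (SD, n = 2). The lowest treated library was 4.37 times the highest untreated one. The log2 fold change was 2.98 ± 0.42 SE (adjusted p = 0.00159), a fitted fold of 7.91, and it ranked above 98.6% of tested genes. The untreated libraries themselves differed by 3.77-fold (exact 95% interval 2.22 to 6.64 for counting error alone), replicate 1 being the higher. The size of the change therefore depends on that pair: leaving out untreated replicate 1 gave 4.18 and leaving out replicate 2 gave 2.25. Those fits no longer hold the spread of the untreated pair, so only their values are given.

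Il15ra encodes the alpha chain that presents interleukin-15, and it rose alongside. Its counts were 41 and 91 untreated and 278 and 294 treated. The corresponding levels were 2.13 and 3.45 CPM, then 15.6 and 14.8 CPM, with group means of 2.79 ± 0.933 and 15.2 ± 0.543 CPM (SD, n = 2). The lowest treated library was 4.29 times the highest untreated one, nearly the same gap as for Il15. The log2 fold change was 2.42 ± 0.24 SE (adjusted p = 0.000107), a fitted fold of 5.35. Unlike Il15, Il15ra was higher in untreated replicate 2 than in replicate 1, by 1.62-fold (1.11 to 2.4). The 95% intervals of the changes, 2.05 to 3.92 for Il15 and 1.88 to 2.96 for Il15ra, overlap. The difference between these changes was not tested.

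Il7, the gene of the lymphocyte precursor factor interleukin-7, was low and rose about 2-fold. It had 32 and 34 untreated counts and 54 and 73 treated counts. These were 1.66 and 1.29 CPM untreated and 3.03 and 3.68 CPM treated, so the groups did not overlap. The log2 fold change was 1.20 ± 0.29 SE (adjusted p = 0.0437), close to the threshold. The call was lost under 5 of 12 alternatives, among them DESeq2 (adjusted p = 0.128), total library size scaling (0.0642), upper quartile scaling (0.0605) and the fits without IFN-beta replicate 1 (0.0862) or 2 (0.301). The log2 value remained between 1.01 and 1.40 in all of them.

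Csf1, the macrophage growth factor gene, rose by a factor of 2 from a high count. It had 4275 and 8710 counts untreated and 10904 and 9766 after IFN-beta. The levels were 222 and 330 CPM, then 611 and 492 CPM, and the means 276 ± 76.4 and 551 ± 84.2 CPM (SD, n = 2). Here the untreated replicate 2 was 1.49-fold above replicate 1 (1.43 to 1.54), as large a step as that from the highest untreated to the lowest treated library (1.49-fold). The log2 fold change was 0.997 ± 0.19 SE (adjusted p = 0.0121). Its value ran from 0.76 without untreated replicate 1 to 1.31 without untreated replicate 2.

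Kitl, the stem cell factor gene, was not called. Its counts were 5468 and 4962 untreated and 3864 and 3683 treated. The levels were 284 and 188 CPM untreated and 217 and 186 CPM treated, and the groups overlapped. The log2 fold change was -0.23 ± 0.19 SE (adjusted p = 0.551), with a 95% interval from -0.65 to 0.18 that leaves out a rise like that of Csf1. The untreated libraries differed by 1.51-fold, and the sign turned with them: leaving out untreated replicate 1 gave 0.12 and leaving out replicate 2 gave -0.50.

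Tslp, which encodes a cytokine best known from epithelial cells, had 38 and 32 counts untreated and 31 and 29 treated. Its level was 1.59 ± 0.538 CPM untreated and 1.60 ± 0.195 CPM after IFN-beta (SD, n = 2), with overlapping groups. Markers of epithelial cells were close to absent, each of 5 having 10 or fewer counts in every library. The log2 fold change of Tslp was 0.03 ± 0.35 SE (adjusted p = 0.979), and the 95% interval from -0.76 to 0.82 leaves room for changes of moderate size. Its sign turned with the scaling, to -0.12 under total library size and -0.05 under upper quartile scaling.

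**Figure D2:**
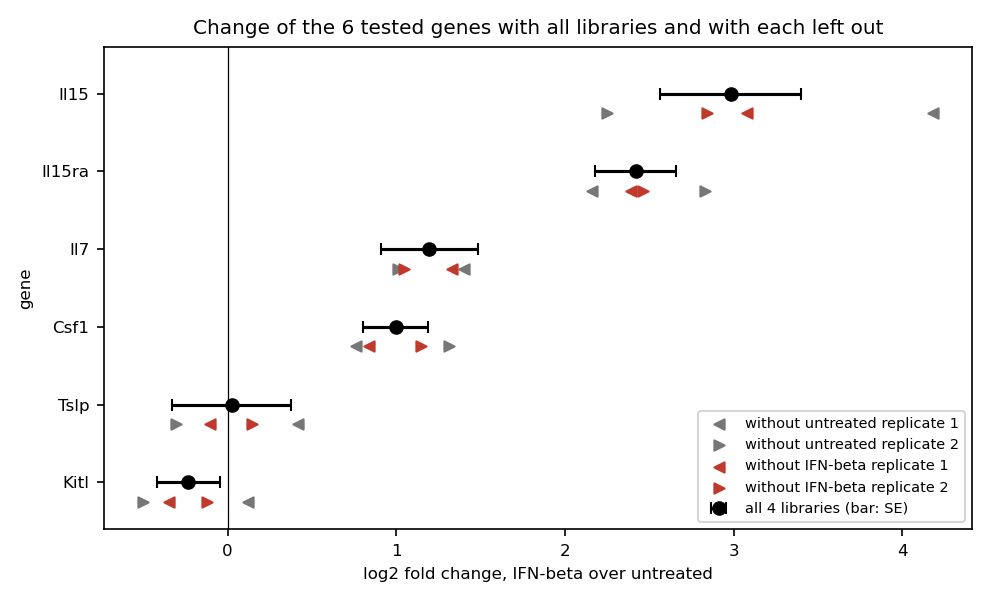
Log2 fold change of IFN-beta over untreated (horizontal axis) for the 6 tested genes, as black circles with SE bars for all 4 libraries and triangles for fits without 1 library. Il15, Il15ra, Il7 and Csf1 stay to the right of 0 in every fit, Il15 spreads widest, from 2.25 to 4.18, and Kitl and Tslp fall on both sides of 0.

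The colony-stimulating factor genes Csf2 and Csf3 and the B cell factor gene Tnfsf13b did not pass the filter on low counts. Csf2 had 4 and 4 counts untreated and 4 and 1 treated. Csf3 had 4 and 2 counts, then 3 and 1. Tnfsf13b had 2 and 1 counts, then 1 and 2, and its start region is the one with the strict ISRE core shown above. None of the 3 genes separated the groups. The pooled ratio of treated to untreated was 0.756 for Csf2 (exact 95% interval 0.195 to 2.62, counting error only), 0.807 for Csf3 (0.167 to 3.4) and 1.21 for Tnfsf13b (0.162 to 9.04). At this depth a rise as large as that of Il15 lies outside the intervals of Csf2 and Csf3 but inside that of Tnfsf13b. When the filter was dropped, the adjusted p-values were 0.911, 0.945 and 0.97 in edgeR.

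Against all tested genes the 4 called genes ranked high without being extreme. Il15ra was above 98.3% of tested genes by log2 fold change, Il7 above 96.6% and Csf1 above 95.9%, while Tslp (56.2%) lay near the middle and Kitl (24.2%) in the lower part.

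**Figure D3:**
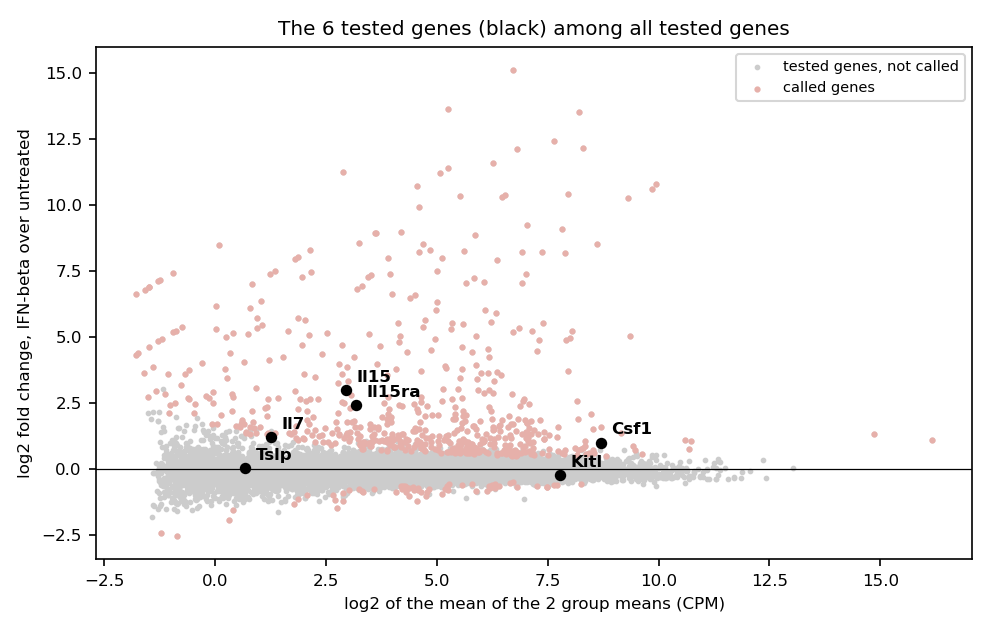
Log2 fold change of IFN-beta over untreated (vertical axis) against the log2 of the mean level in CPM (horizontal axis) for 12128 tested genes, grey where not called and pink where called, with the 6 tested cytokine and receptor genes in black. Il15, Il15ra, Il7 and Csf1 lie above most grey points, though some genes not called, such as Flt3l (1.48), stand higher than Il7 (1.20). Tslp and Kitl lie among the grey points, and many called genes lie far above all 6.

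The genes whose profile over the 4 libraries lay closest to each called gene were found by the distance between log2 deviations from the untreated mean, among 11358 candidates. With 4 libraries such a likeness mostly reflects a similar fold and a similar gap between replicates. Closest to Il15 were Apol7a (distance 0.744), the class I-like gene H2-T22 (0.854) and Ifi27l2a (0.931), all at larger distances than any neighbour of the other 3 genes. Closest to Il15ra were Slfn10-ps (0.177), the Toll-like receptor adaptor gene Myd88 (0.184) and the intracellular peptidoglycan sensor gene Nod1 (0.199). For Il7 they were the "don't eat me" signal gene Cd47 (0.141), Stard5 (0.148) and Acaa1a (0.164), and for Csf1 Parp4 (0.0512), the syndecan gene Sdc3 (0.115) and Usp42 (0.123). With a prior count of 0.5 in place of 2, 2 of 3 neighbours were shared for Il15, Il15ra and Il7, and 3 of 3 for Csf1. H2-T22 and Slfn10-ps belong to families of near-identical copies, so their counts are uncertain.

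The receptors through which these cytokines act were nearly absent, and only 2 of 13 were tested. Of these, 0 were called by edgeR, DESeq2 or limma-voom, or had an unadjusted p under 0.05. Over all 12128 tested genes 4.73% were called higher and 0.495% lower, and 2202 had an unadjusted p under 0.05. Of 13 receptor genes, 11 had 10 or fewer counts in every library. Kit, the receptor of Kitl, and Tnfrsf13b had 0 counts in all 4. The beta chain Il2rb and the common gamma chain Il2rg, which receive interleukin-15 from Il15ra, had 0 to 3 counts per library, and Il7r had 0 to 2. The exceptions were the Csf1 receptor Csf1r, with 99 and 137 counts untreated and 122 and 87 treated (log2 fold change 0.11 ± 0.25 SE, adjusted p = 0.857), and the Tslp receptor chain Crlf2, with 50 and 98, then 45 and 75 counts (-0.01 ± 0.30 SE, adjusted p = 0.99). The signs of both turned in other fits. In bulk RNA, few cells with a gene and little RNA per cell cannot be told apart. Of 11 leukocyte and myeloid markers, which include Csf1r, 0 of 5 tested were called, their summed level was 18.3 to 23.7 CPM untreated and 16.6 to 21.5 CPM treated, and the T cell marker Cd3e was at 0. The pan-leukocyte gene Ptprc had 7 to 12 counts per library, and the macrophage marker Cd68, with 16 and 18 counts untreated and 26 and 24 treated, was the 1 marker with an unadjusted p under 0.05. Cd14 had 134 to 229 counts per library (log2 fold change 0.03). Lyz2 (164 and 67 to 68 and 27 counts, log2 fold change -1.08, adjusted p = 0.349) and Fcer1g (9 and 8 to 2 and 1 counts, not tested) were lower in the treated means. The part of these cells in the levels of the 9 genes was not tested.

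Other cytokines of the same settings responded unevenly. Of 16 further support and gp130-type cytokines 11 were tested, 2 rose, 0 fell, and the median log2 fold change was 0.09. Over all tested genes 4.73% were called higher and 0.495% lower, with a median of -0.02. Il6, a B cell and plasma cell factor with wide inflammatory roles, rose from 1.01 ± 0.255 to 25.5 ± 1.53 CPM (SD, n = 2), a log2 fold change of 4.67 ± 0.23 SE. Angpt1, a vessel-stabilising factor that also supports blood stem cells, went from 151 and 87 counts to 383 and 425 (log2 fold change 1.97 ± 0.32 SE, adjusted p = 0.00407). Leaving out untreated replicate 1 gave 2.72, and leaving out untreated replicate 2 gave 1.45. The endothelial marker list, to which Angpt1 does not belong, had a summed level of 1.09 to 1.14 CPM untreated and 2.01 to 3.31 CPM treated, with Pecam1 at 0 to 2 counts, Cdh5 called higher (2 and 6 to 24 and 19 counts), Kdr at 10 and 18 to 32 and 20 counts (not called, adjusted p = 0.177), Tek, the receptor gene of Angpt1, at 5 and 2 to 0 and 0 counts and Vwf at 0 to 3 counts. The part of this list in the Angpt1 result was not tested. The Cdh5 call was lost by DESeq2 (adjusted p = 0.0572) and without IFN-beta replicate 1 (0.0777). The growth factor gene Igf1 was at -0.95 ± 0.32 SE and not called (adjusted p = 0.148). With all 4 libraries and no count filter it was called lower (adjusted p = 0.00207), but that setting called 863 genes higher and 381 lower. Igf1 was at -1.37 without untreated replicate 2 and at -0.39 without untreated replicate 1. Flt3l, the dendritic cell growth factor gene, which was singled out after its values were seen, had 13 and 6 counts untreated and 22 and 23 treated and was not called (log2 fold change 1.48, adjusted p = 0.151). It was called with all 4 libraries without a count filter (adjusted p = 0.0446) and without untreated replicate 1 (2.39, adjusted p = 0.00785), and was at 0.82 without untreated replicate 2 (adjusted p = 0.296). The 7 further interleukins looked up, among them Il2, Il4 and Il3, were not testable: 6 were at 0 in every library and Il5 had 2 and 1 treated counts.

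In the TNF ligand family, to which Tnfsf13b belongs, 5 of 17 genes were tested and, beside 4.73% over all tested genes, 1 was called higher. This was Tnfsf10 (TRAIL, a death ligand), with 18 and 19 counts untreated and 236 and 252 treated (log2 fold change 3.98 ± 0.25 SE). The costimulatory ligand genes Tnfsf18 (0.94, adjusted p = 0.202) and Tnfsf9 (0.61, adjusted p = 0.281) were not called. Without untreated replicate 2 they were at 1.65 and 0.90, and without untreated replicate 1 at 0.55 and 0.43. Tnfsf18 was called with all 4 libraries without a count filter (adjusted p = 0.0341), a setting that gave more calls over all genes. Of the 17 genes, 11 had 10 or fewer counts in every library. Tnfsf13, which encodes APRIL, the closest relative of BAFF, had 1 or 2 counts in each.

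The tested transcription factors of the interferon pathway rose, and NF-kB genes gave no call in the fit of all 4 libraries, like most tested genes. Of 8 factors listed as interferon-activated, 7 were tested and 7 called higher, with a median of 3.77, beside 4.73% called higher over all tested genes. Irf8 had 0 to 2 counts per library. The list was named for activation by interferon, so its rise is no independent result. Stat2 went from 3.44 ± 0.386 to 114 ± 22.2 CPM (SD, n = 2). Irf7 had 0 and 3 untreated counts and 1728 and 1745 treated counts, a pooled ratio of 1400 (479 to 6800, exact 95% interval for counting error). It passed the filter on low counts only through the treated libraries. Irf1, named after its values were seen, rose from 13.6 ± 0.267 to 108 ± 16.8 CPM. Of 8 NF-kB subunit and inhibitor genes 0 were called, beside 4.73% higher and 0.495% lower over all tested genes. The median of the 8 was -0.04, with Relb at -0.29, Rel at -0.27 and Nfkb1 at 0.20. The sign for Relb was not stable (0.002 without untreated replicate 2). In that same fit Nfkb1 was at 0.47, and without untreated replicate 1 it was at 0.001. DESeq2 and limma-voom also called 0 of these 8, and 0 had an unadjusted p under 0.05, beside 2202 of all 12128 tested genes. Transcript levels of these factors do not measure their activity.

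Genes that process cytokines or control their messages showed few calls, as did all tested genes (4.73% higher and 0.495% lower). Among 7 tested proteases and rhomboid partners that trim or shed cytokines such as Csf1, Kitl and BAFF, 0 were called by edgeR, DESeq2 or limma-voom. An unadjusted p under 0.05 was met by 1 of them, Mmp14, beside 2202 of all 12128 tested genes. Mmp14 was at 0.35 (adjusted p = 0.156), the BAFF-cleaving protease gene Furin at 0.44 (adjusted p = 0.345) and Rhbdf1 at -0.28 (adjusted p = 0.458). Without untreated replicate 2, Mmp14 was at 0.40 and Furin at 0.92, and without untreated replicate 1 they were at 0.335 and 0.119. Among 9 genes of cytokine mRNA decay and stability 1 rose, with a median of 0.31. Zfp36 (tristetraprolin), which promotes decay of AU-rich messages such as that of Csf2, had 92 and 141 counts untreated and 245 and 184 treated (log2 fold change 1.18 ± 0.23 SE, adjusted p = 0.0141). That call was lost without IFN-beta replicate 1 (0.87, adjusted p = 0.19). The relatives and partners Zfp36l2 (0.51, adjusted p = 0.161) and Khsrp (0.38, adjusted p = 0.275) were not called. Khsrp was at 0.58 without untreated replicate 2 and at 0.22 without untreated replicate 1. Zfp36l2 was called with all 4 libraries when the count filter was dropped (adjusted p = 0.0093), a setting that gave more calls over all genes. Its value ran from 0.23 to 0.75 with a library left out.

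**Figure D4:**
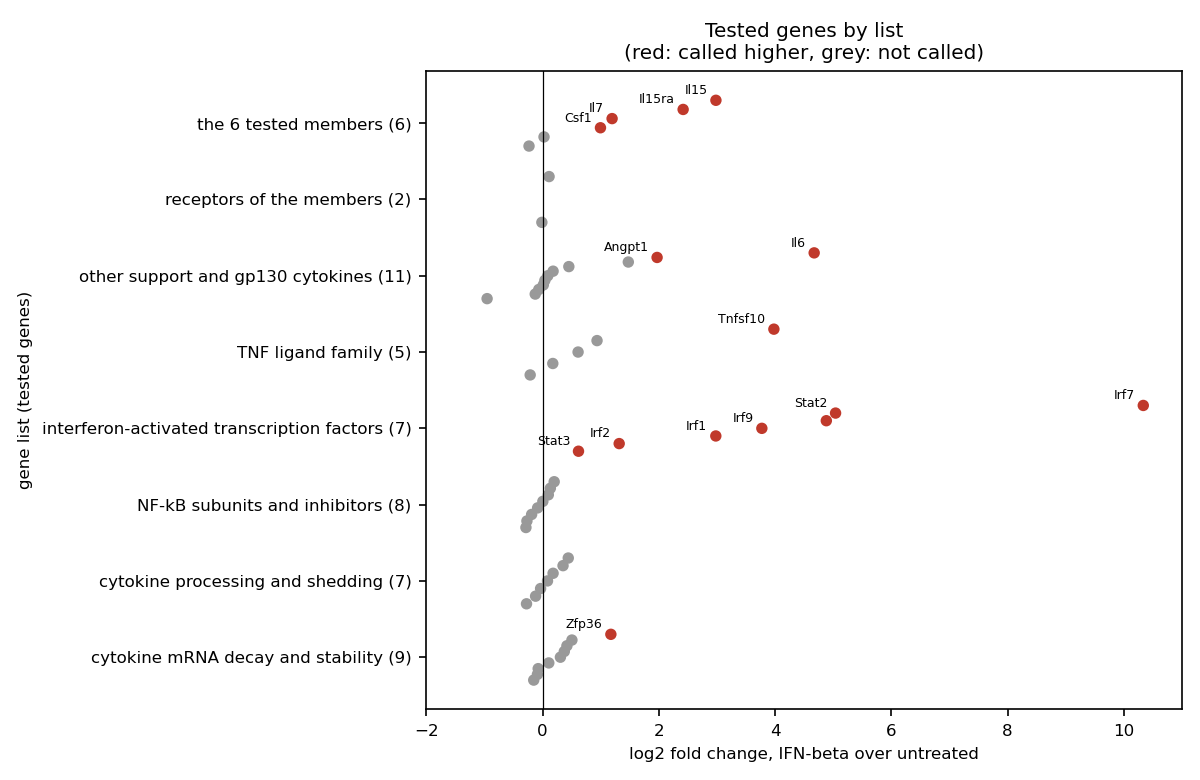
Log2 fold change of IFN-beta over untreated (horizontal axis) for each tested gene of the 9-gene set and of 7 related lists (rows, with the number tested), red where called higher and grey where not. Red are 4 of 6 tested genes of the set, 2 of 11 further cytokines, 1 of 5 TNF ligands and 7 of 7 interferon-activated factors. Of 8 NF-kB genes 0 are red, beside 4.73% called higher over all tested genes. The point of Irf7 rests on 3 untreated counts.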

How the data were processed

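RNA from untreated and IFN-beta treated MEFs was sequenced, 2 libraries per group. Per the labels' protocols, total RNA came from a Trizol extraction and a TruSeq kit was used for the libraries. The deposited values are raw read counts per gene symbol, 1 table per library. The submitters' processing notes name TopHat2 2.0.13, HTSeq 0.7.2 and mm9. Annotation and strandedness of the counting are not given in the sources used here, so overlapping genes of opposite strand cannot be told apart. The 5 summary lines without a gene were left out; 38.7% to 42.7% of all records were assigned to genes. The chromatin samples were not analysed here.

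The test was that of edgeR 4.0.16 under R 4.3.3 (quasi-likelihood F test, TMM scaling, group as the only term, minimum count 10, minimum total 15), with p-values adjusted over all tested genes and called below 0.05. The SE is the log2 fold change divided by the square root of F. CPM used TMM-adjusted library sizes. Levels of different genes were not compared, since counts were not divided by transcript length. With 2 libraries against 2, an exact permutation test cannot go below p = 0.333, so none was run on single genes. The procedure was tested on simulated data. All 9 genes were named, with up to 3 genes per related list by smallest p, every called gene where a list had 5 or fewer, and 3 closest profiles per called gene. The genes, lists and rule were chosen with earlier results of these data known. Alternatives were other scalings, filters, DESeq2 1.42.0, limma-voom (limma 3.58.1), a replicate block, another prior count, a looser motif and each library left out. Values of a few single genes are not reported here.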

Additional observations from a re-analysis of the deposited data

How the results depend on the processing

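Il15, Il15ra and Csf1 were called higher under all 8 alternatives that kept the 4 libraries. Over all 12 alternatives their log2 values were 2.25 to 4.18, 2.16 to 2.83 and 0.76 to 1.31. A fit with a library left out loses the spread of that pair, so its calls are weak support. The number of the 9 genes called higher was 3 or 4 in every fit, the difference being Il7, and the number called lower was 0 except for Kitl without untreated replicate 2, so it ran from 0 to 1 when a library was left out. Over all genes, higher calls numbered 863 without a count filter and ran from 470 to 1885 with a library left out. Lower calls numbered 350 with total library size, 128 with upper quartile scaling, 381 without a count filter, 95 by DESeq2 and 155 with the replicate block, and ran from 24 to 1728 with a library left out. The upper ends of both ranges came from the fit without untreated replicate 2, the fit in which Kitl was called lower. The cause of these shifts was not tested. A group left with a single library was assumed to vary like the other one.

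Replicate numbers were shared by the groups, but deviations of same-numbered libraries had a correlation of -0.03 over 12128 genes, so they were not taken as pairs. With the replicate block the same 4 genes were called higher, Il7 with an adjusted p of 0.00694, and of the other named genes that were not called Igf1 (-0.896, adjusted p = 0.0283), Flt3l (1.496, 0.0358) and Tnfsf18 (0.996, 0.0476) passed. Among the named genes, signs turned only for some that were not called. Tslp was at -0.117 with total library size and -0.047 with upper quartile scaling, and ran from -0.307 to 0.416 with a library left out. Kitl ran from -0.499 to 0.119, Csf1r from -0.235 to 0.405 (-0.033 with total library size), Crlf2 from -0.331 to 0.286 (0.004 by DESeq2) and Relb from -0.487 to 0.002. Depth limits what can be said of Csf2, Csf3 and Tnfsf13b, at 1 to 4 counts per library.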
